A study of Mus musculus with 18 samples.

Results

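The urea cycle genes described here are the enzymes Nags, Cps1, Otc, Ass1 and Asl of ammonia entry and the cycle proper, the ornithine carrier Slc25a15, the aspartate-glutamate carrier Slc25a13 and the liver glutaminase Gls2. They were chosen by name, 8 of the 22524 genes in the count files, and were found by matching each symbol to its Ensembl identifier. All 8 were among the 13353 genes that had enough reads to be tested. Liver RNA of female C57BL/6 mice aged 15 months was compared between 10 heterozygous Rps2-A226Y mice and 8 wild-type (WT) mice, with 1 library per mouse. The WT mice expressed Cre recombinase, and whether each A226Y mouse still carried the transgene is not given in the sources used here. Rps2 encodes a protein of the small ribosomal subunit at the decoding centre, and the A226Y change was made to raise the error rate of translation. The mutant allele was released from a floxed stop cassette by Cre driven from the ubiquitous CMV promoter. According to the methods, excision was incomplete, so the livers were mosaics in which cells that kept the cassette had a single active Rps2 allele. Feeding state and time of day at tissue collection are not given in the sources used here.

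The urea cycle turns ammonia, which is toxic to the brain, into urea, and its complete form is found chiefly in periportal hepatocytes. Ammonia and bicarbonate are joined by Cps1 in the mitochondrial matrix, Otc passes the carbamoyl group to ornithine there, and the citrulline so formed leaves for the cytosol, where Ass1 and Asl turn it into arginine, from which urea is released. Amino acid breakdown feeds it, and glucagon and glucocorticoids, the hormones of fasting, are known to raise the transcripts of its enzymes in rodent liver.

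Total counts ranged from 23850565 to 62126131 per mouse, and the 8 urea cycle genes had between 2010 and 290230 counts in every mouse, so counting error was small beside the spread between mice. Rps2, the targeted gene, had between 46.9 and 83.0 CPM (counts relative to a common library total, scaled with the TMM method of edgeR; median 72.5) in A226Y mice and between 104 and 143 (median 109) in WT mice, with no overlap (log2 fold change -0.73, SE 0.11, adjusted p = 0.000772 by edgeR's quasi-likelihood test). These counts do not tell the mutant from the normal allele. The tissue label was checked against 8 hepatocyte markers, whose summed level was between 106900 and 171300 CPM in A226Y and between 120900 and 212200 CPM in WT mice. The 4 kidney markers had at most 1 count in any mouse. Of 5 pancreas markers 1 had enough reads to be tested and did not pass. The untested pancreas markers had at most 89 counts in any mouse.

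The pair of enzymes that follow each other in the mitochondrial matrix moved in opposite directions. Cps1 rose and Otc fell in A226Y liver, while the other 6 genes did not pass the test at an adjusted p under 0.05. With 1 of 8 genes higher and 1 of 8 lower, the shares were set beside 7.27% higher and 7.03% lower over all 13353 genes. At an unadjusted p under 0.05, 4 of the 8 were higher (14.9% of all genes) and 2 were lower (14.7% of all genes). The median log2 fold change of the 8 was 0.175, against -0.0044 over all tested genes. In none of the 8 did the ranges of the 2 genotypes lie apart, which they did in 0.637% of all genes.

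**Figure D1:**
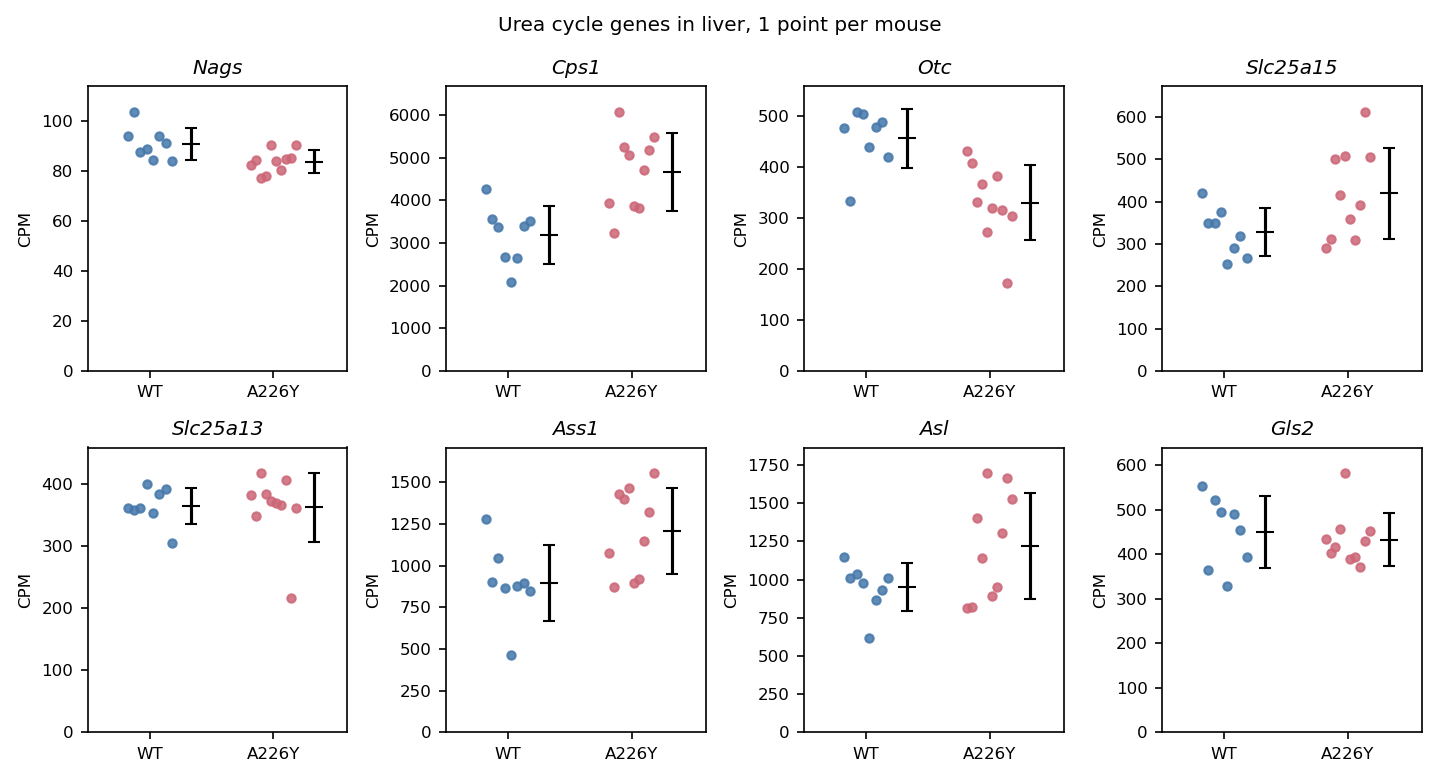
CPM of the 8 urea cycle genes in liver, 1 point per mouse (blue, 8 WT; red, 10 A226Y), with the mean and SD in black beside each group and all vertical axes starting at 0. Cps1 sits higher in A226Y and Otc lower, with overlap between the genotypes in every panel.

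Cps1 (ENSMUSG00000025991, chr1:67123026-67231259 on the + strand of GRCm38) encodes carbamoyl phosphate synthetase, the entry step and the step that limits flux. Its level was between 2079 and 4269 CPM (median 3385) in WT mice and between 3222 and 6073 CPM (median 4889) in A226Y mice. In 6 of 10 A226Y mice Cps1 was above the highest WT mouse, and in all 10 it was above the WT mean. The mean was 3192 ± 686 CPM (SD, n = 8) in WT and 4662 ± 906 CPM (SD, n = 10) in A226Y, a 1.46-fold difference (log2 fold change 0.55, SE 0.14, adjusted p = 0.0137 by edgeR's quasi-likelihood test). A two-sided exact permutation test of the mean log2 CPM, with all 43758 ways to divide the mice enumerated, gave p = 0.00178 before correction.

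Otc (ENSMUSG00000031173, chrX:10252305-10321024, + strand) encodes ornithine transcarbamylase, which uses the product of Cps1. Its level was between 334 and 508 CPM (median 478) in WT mice and between 173 and 432 CPM (median 326) in A226Y mice. All 10 A226Y mice were below the WT mean and 6 were below the lowest WT mouse. The mean was 456 ± 58.1 CPM (SD, n = 8) in WT and 330.5 ± 74.4 CPM (SD, n = 10) in A226Y (log2 fold change -0.47, SE 0.13, adjusted p = 0.0238 by edgeR; exact permutation p = 0.00206 before correction). The lowest value of all belonged to A226Y mouse 29, and without it the change was -0.39 (adjusted p = 0.00962 by edgeR). Without WT mouse 14 it was -0.44 with an adjusted p of 0.0510 by edgeR, just short of the threshold.

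The start regions of members were read from a RefSeq table on GRCm38.p6, which held 5 of the 8 genes (Otc, Ass1, Nags, Slc25a13 and Slc25a15) in 6 windows. The bases before the start are shown for Otc, the gene that fell, and for Ass1 and Slc25a15, which had higher mean levels in A226Y liver. Capitals mark GGGCGG, the GC box, on either strand. The run of Otc is chrX:10252055-10252304 (+ strand), that of Ass1 chr2:31470020-31470206 (+ strand, ending where the GENCODE gene begins) and that of Slc25a15 chr8:22398622-22398871 (- strand).
Otc: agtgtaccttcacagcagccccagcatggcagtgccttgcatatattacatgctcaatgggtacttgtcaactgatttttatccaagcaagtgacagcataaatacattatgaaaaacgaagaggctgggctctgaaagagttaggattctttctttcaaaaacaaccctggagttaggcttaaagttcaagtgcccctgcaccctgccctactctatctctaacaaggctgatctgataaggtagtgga
Ass1: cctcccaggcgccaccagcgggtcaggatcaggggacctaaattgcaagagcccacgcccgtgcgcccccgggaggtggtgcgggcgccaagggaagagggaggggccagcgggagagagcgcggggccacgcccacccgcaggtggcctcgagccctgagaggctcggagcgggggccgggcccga
Slc25a15: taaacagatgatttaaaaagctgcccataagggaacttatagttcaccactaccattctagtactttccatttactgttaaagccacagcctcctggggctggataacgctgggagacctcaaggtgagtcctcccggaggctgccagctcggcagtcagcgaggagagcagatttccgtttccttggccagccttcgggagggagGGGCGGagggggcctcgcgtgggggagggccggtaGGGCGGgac

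The 250 bases before the RefSeq start were 43.6% G or C in Otc, 75.6% in Ass1 and 57.6% in this window of Slc25a15, against a median of 52.4% over the 32851 windows of the table. Searched on both strands in those 250 bases, the letters of 4 motifs of liver hormone and nuclear factors were found in none of the 6 windows. These were TGACGTCA (cAMP response element; in 1.55% of all windows), TTNNGCAA (C/EBP; 9.56%), CAAAGTCCA (HNF4 type; 0.384%) and TGTTCT (the hexamer read by the glucocorticoid receptor; 16.1%). The GC box, searched after the other motifs, was held by 32.7% of all windows, by those of Ass1, Nags and Slc25a15, and not by those of Otc and Slc25a13. The match of Ass1 began at position -63 from the RefSeq start, in the last 63 of the 250 bases, which are not shown. As only the GC box was found, no matches of different motifs overlapped. A match of letters is a description and not a binding site.

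The cytosolic enzymes Ass1 and Asl had higher means in A226Y liver, but neither passed the test over all genes. Ass1 (ENSMUSG00000076441, chr2:31470207-31520672, + strand), argininosuccinate synthetase, was between 462 and 1279 CPM (median 889) in WT and between 874 and 1554 CPM (median 1237) in A226Y mice. Of the A226Y group, 5 of 10 mice lay above every WT mouse, and WT mouse 21 lay well below all others. The log2 fold change of Ass1 was 0.43 (SE 0.16, adjusted p = 0.0699 by edgeR; exact permutation p = 0.0153 before correction). This gene passed with DESeq2 (adjusted p = 0.0330), with scaling by library size only (0.0459), with a length offset (0.0462), and without WT mouse 4 (0.0318) or A226Y mouse 5 (0.0473), and its adjusted p over the other alternatives ran up to 0.913.

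Asl (ENSMUSG00000025533, chr5:130011258-130029247, - strand), which splits argininosuccinate into arginine and fumarate, was between 619 and 1144 CPM (median 993) in WT and between 816 and 1694 CPM (median 1221) in A226Y mice. The coefficient of variation was 28.3% in A226Y and 16.4% in WT mice, with 5 A226Y mice above every WT mouse and 3 below the WT mean. The log2 fold change was 0.36 (SE 0.16, adjusted p = 0.127 by edgeR; exact permutation p = 0.0723).

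The carriers of the inner mitochondrial membrane link the matrix steps to the cytosol. Slc25a15 (ENSMUSG00000031482, chr8:22375551-22398597, - strand), which brings ornithine into the matrix for Otc and takes citrulline out, was between 252 and 420 CPM (median 334) in WT and between 290 and 612 CPM (median 404) in A226Y mice. Its highest value was in A226Y mouse 29, the mouse with the least Otc, and 4 of 10 A226Y mice were above every WT mouse. The log2 fold change was 0.36 (SE 0.14, adjusted p = 0.0964 by edgeR; exact permutation p = 0.0449 before correction). Slc25a13 (ENSMUSG00000015112, chr6:6041218-6217173, - strand), citrin, which exports aspartate for Ass1, was between 305 and 400 CPM (median 361) in WT and between 216 and 417 CPM (median 371) in A226Y mice. Only mouse 29 lay below the WT range, and the log2 fold change was -0.01 with a 95% interval from -0.20 to 0.18 (adjusted p = 0.963 by edgeR).

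Nags and Gls2 act where ammonia enters, beside Cps1. Nags (ENSMUSG00000048217, chr11:102145513-102149477, + strand) makes N-acetylglutamate, without which Cps1 is inactive, and was between 83.8 and 104 CPM (median 90.1) in WT and between 77.4 and 90.6 CPM (median 84.3) in A226Y mice. Every A226Y mouse was below the WT mean, 4 of them below the lowest WT mouse, and the spread was the narrowest of the 8 genes (coefficient of variation 5.40% in A226Y and 7.06% in WT). The log2 fold change was -0.12 (SE 0.05, adjusted p = 0.122 by edgeR; exact permutation p = 0.0113 before correction). An antisense gene, Gm11586, overlaps 15.6% of the exon length of Nags, and the stated methods do not say whether strand was used in counting. Gls2 (ENSMUSG00000044005, chr10:128194457-128210004, + strand), which frees ammonia from glutamine, was between 329 and 553 CPM (median 472) in WT and between 372 and 581 CPM (median 423) in A226Y mice. Its log2 fold change was -0.06 with a 95% interval from -0.26 to 0.15 (adjusted p = 0.762 by edgeR).

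Because Cps1 and Otc were read from the same library, their ratio does not depend on how libraries are scaled. This ratio was chosen after the values were seen and is given without a test. Cps1 had between 4.73 and 10.7 counts per Otc count (median 6.80) in WT mice and between 7.89 and 30.1 (median 14.6) in A226Y mice. In 7 of 10 A226Y mice the ratio was above that of every WT mouse, and the medians differed 2.15-fold. The highest ratio was in mouse 29 and the lowest in WT mouse 21. For comparison, the ratio of Ass1 to Asl, neighbours in the cytosol, had medians of 0.928 in WT and 1.01 in A226Y. In 2 of 10 A226Y mice it was above every WT mouse. That of the carriers Slc25a15 to Slc25a13 had medians of 0.907 and 1.03, with 4 of 10 A226Y mice above every WT mouse. Its highest value, 2.84, was again in mouse 29. Gls2 to Glul had medians of 0.667 in WT and 0.674 in A226Y, with 1 of 10 A226Y mice above every WT mouse.

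**Figure D2:**
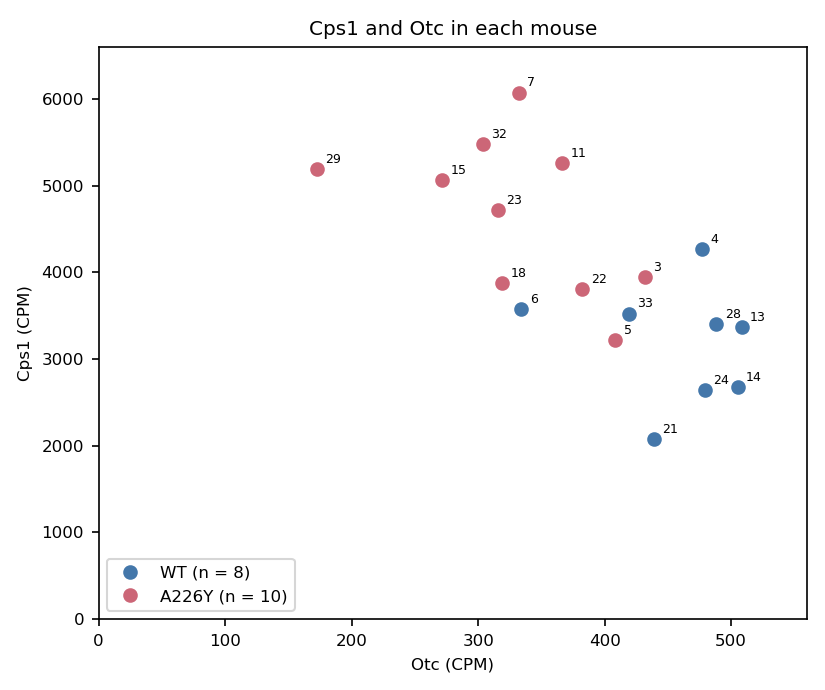
Cps1 against Otc in CPM for each of 18 mice (blue, WT; red, A226Y), labelled by mouse number, with both axes linear from 0. The A226Y mice lie towards the upper left, more Cps1 and less Otc, with mouse 29 farthest to the left at 173 CPM of Otc, and mice 5, 22, 3 and 18 near the WT mice.

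Levels were compared between genes after division by exon length, on the TPM scale, in which length-corrected counts of all genes sum to the same total in every mouse. In WT liver the order was Cps1 (1440 ± 315 TPM, SD, n = 8), Ass1 (932 ± 243), Asl (492 ± 79.2), Gls2 (325 ± 59.0), Otc (270.1 ± 35.9), Slc25a13 (241 ± 24.9), Slc25a15 (146 ± 27.6) and Nags (80.5 ± 7.45). Cps1 was thus 17.9 times as high as Nags. Of these neighbours, the ranges over mice lay apart only for Slc25a15 and Nags, but within a mouse the order held in 8 of 8 for all pairs except Gls2 over Otc and Otc over Slc25a13, which held in 7 of 8. In A226Y liver Otc, at 203.8 ± 45.4 TPM (SD, n = 10), came after Slc25a13 at 249 ± 34.0 TPM, and 8 of 10 mice had this order. Otc and Slc25a15 (196 ± 53.0 TPM) could not be ordered there, with Otc the higher in 6 of 10 mice. Dividing by the longest transcript in place of all exons left the order of the 8 genes as it was in both genotypes.

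The genes also varied from mouse to mouse within a genotype, and 4 of them did so together. Pearson's r and Spearman's rho were computed over 18 mice for all 28 pairs after the mean of each genotype was removed from log2 CPM, with permutation within genotypes (100000 draws, two-sided) and Benjamini-Hochberg adjustment over the 28 pairs. By r, 11 pairs passed an adjusted p of 0.05, of which 9 were positive and 2 negative, and by rho 7 passed. The 6 pairs among Cps1, Ass1, Asl and Slc25a15, a block named after the values were seen, had r between 0.735 and 0.896, with permutation p of at most 0.0026 after adjustment. Without the 2 mice farthest from the median of the first gene, r in these pairs was between 0.663 and 0.867.

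**Figure D3:**
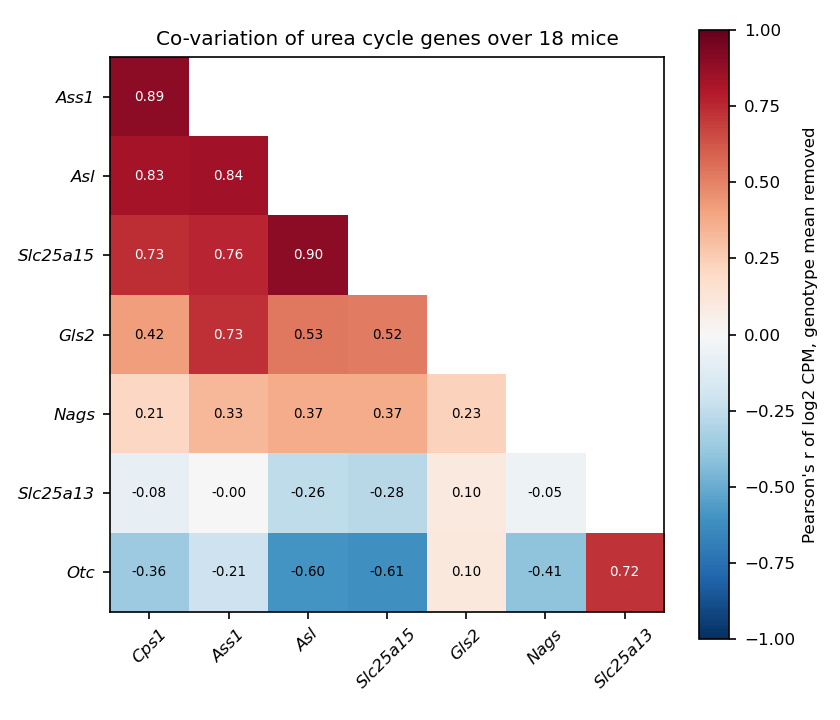
Pearson's r between urea cycle genes over 18 mice, from log2 CPM with the genotype mean removed (red, positive; blue, negative; values printed in each cell). The 6 cells of Cps1, Ass1, Asl and Slc25a15 at the upper left are between 0.735 and 0.896, and Otc in the bottom row is negative with all 4.

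The strongest pairs were Asl with Slc25a15 (r = 0.896, rho = 0.884, adjusted permutation p = 0.00021 for r) and Cps1 with Ass1 (r = 0.892, rho = 0.872, adjusted permutation p = 0.00021). Both had r of at least 0.75 in each genotype alone. Otc stood outside the block. Its r was -0.614 with Slc25a15 (rho = -0.529, adjusted permutation p = 0.031 for r and 0.11 for rho, r = -0.470 without the 2 mice) and -0.600 with Asl (rho = -0.593, adjusted permutation p = 0.031 for r and 0.067 for rho, r = -0.588 without the 2 mice). In A226Y mice alone r of Otc was -0.843 with Slc25a15 and -0.770 with Asl, and in WT mice alone it was 0.172 and 0.034, differences that were not tested. With Cps1 itself Otc had r = -0.365 (rho = -0.379, adjusted permutation p = 0.22). The r of 0.72 between Otc and Slc25a13 fell to 0.178 without the 2 mice, and so rests on them. Gls2 went with Ass1 (r = 0.732, rho = 0.666, adjusted permutation p = 0.0013, r = 0.537 without the 2 mice). By r it also passed with Asl (r = 0.528, adjusted permutation p = 0.031) and Slc25a15 (r = 0.52, adjusted permutation p = 0.047), which it did not by rho, and Nags passed with no other member.

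Of 7818 other genes with at least 10 CPM, those whose profile over the 18 mice was most like the mean profile of the 8 were Ahcy, Sorbs3, Got1, Hgd and Foxred1, at a mean absolute difference of 0.399 to 0.470 SD (median of all genes 1.09). Got1, the cytosolic aspartate aminotransferase, ranged from 125 to 496 CPM in WT and from 181 to 1040 CPM in A226Y mice (log2 fold change 0.60, SE 0.32, adjusted p = 0.215 by edgeR). Ahcy encodes the enzyme that cleaves S-adenosylhomocysteine, and Hgd an enzyme of tyrosine breakdown.

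Around the cycle, 103 related genes in 8 lists were read, some in more than 1 list, and of the 97 tested 12 were higher and 12 lower, beside 7.27% higher and 7.03% lower over all genes. The same shares are the background for the counts in each list that follows. Among 19 genes that supply nitrogen and carbon to the cycle, 2 were higher and 2 lower (median log2 fold change 0.08). Sdsl, of the serine dehydratase family, rose (log2 fold change 0.89, SE 0.20, adjusted p = 0.00801 by edgeR), and so did Gldc, the decarboxylase of the glycine cleavage system (0.52, SE 0.12, adjusted p = 0.00995). Car5a, the mitochondrial carbonic anhydrase that provides bicarbonate to Cps1, fell from 89.3 ± 17.6 CPM (SD, n = 8) to 60.9 ± 12.6 CPM (SD, n = 10), with 7 of 10 A226Y mice below every WT mouse (log2 fold change -0.55, SE 0.13, adjusted p = 0.011 by edgeR). Like Otc, it was lowest in mouse 29, and an antisense transcript covers 23.5% of its exon length. Asrgl1, an asparaginase, fell (-0.32, SE 0.10, adjusted p = 0.0348 by edgeR), a call kept in 7 of 10 other settings and in 10 of the 18 fits that left out a mouse. Glud1, the mitochondrial glutamate dehydrogenase, had a log2 fold change of -0.25 (adjusted p = 0.0577 by edgeR).

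Of the 17 tested genes that use arginine or ornithine, none was higher and 2 were lower, and these are the enzymes of creatine synthesis. Gamt, which methylates guanidinoacetate to creatine, fell from between 87.1 and 284 CPM (median 192) in WT to between 21.9 and 90.3 CPM (median 79.0) in A226Y, and 8 of 10 A226Y mice were below every WT mouse (log2 fold change -1.48, SE 0.27, adjusted p = 0.00282 by edgeR). Gatm, which makes guanidinoacetate and ornithine from arginine and glycine, fell at a far lower level (from 10.2 ± 2.62 to 7.32 ± 1.49 CPM, SD, n = 8 and 10; -0.48, SE 0.14, adjusted p = 0.0276 by edgeR). Oat, which moves ornithine towards glutamate, had a log2 fold change of 0.13 (adjusted p = 0.611), and Odc1, the entry to polyamines, 0.06 (adjusted p = 0.664 by edgeR).

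Among 8 tested genes that handle glutamine and residual ammonia, 1 was higher and 3 lower. Rhbg, an ammonium transporter of pericentral hepatocytes, fell from between 2.77 and 13.6 CPM (median 10.6) to between 1.71 and 4.70 CPM (median 2.88), with a log2 fold change of -1.56 (SE 0.31, adjusted p = 0.00363 by edgeR). Another annotated gene, Gm38392, covers 61.4% of its exon length on the same strand, so reads may have been split between them. Slc38a3, the glutamine carrier of the hepatocyte surface, fell from 1340 ± 304 to 967 ± 86.7 CPM (SD, n = 8 and 10; -0.47, SE 0.11, adjusted p = 0.00896 by edgeR), with 8 of 10 A226Y mice below every WT mouse, and Slc1a4, a neutral amino acid carrier, fell by 0.60 on the log2 scale (adjusted p = 0.0258). Glul, the glutamine synthetase that captures ammonia escaping the cycle, was between 471 and 779 CPM in WT and between 284 and 801 CPM in A226Y mice (log2 fold change -0.07, SE 0.15, adjusted p = 0.801 by edgeR). The higher gene was Slc38a2, an amino acid carrier (0.48, adjusted p = 0.0489 by edgeR), and its call held in 5 of 10 other settings and in 3 of the 18 fits that left out a mouse.

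Of 8 tested transporters of urea and of the cycle's amino acids, 2 were higher and 1 lower. Slc7a2, the carrier of arginine and ornithine at the hepatocyte membrane, rose from between 389 and 815 CPM (median 597) to between 624 and 1340 CPM (median 1020), and 8 of 10 A226Y mice lay above every WT mouse (log2 fold change 0.68, SE 0.16, adjusted p = 0.00874 by edgeR). Slc25a12, aralar, the paralogue of Slc25a13, rose at a low level (from 21.1 ± 1.99 to 26.1 ± 4.42 CPM, SD, n = 8 and 10; 0.31, SE 0.09, adjusted p = 0.0312 by edgeR). Aqp8, a channel for water and ammonia, fell (-1.31, SE 0.31, adjusted p = 0.00896 by edgeR), and Aqp9, through which urea and glycerol pass, had a log2 fold change of -0.10 (adjusted p = 0.518).

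**Figure D4:**
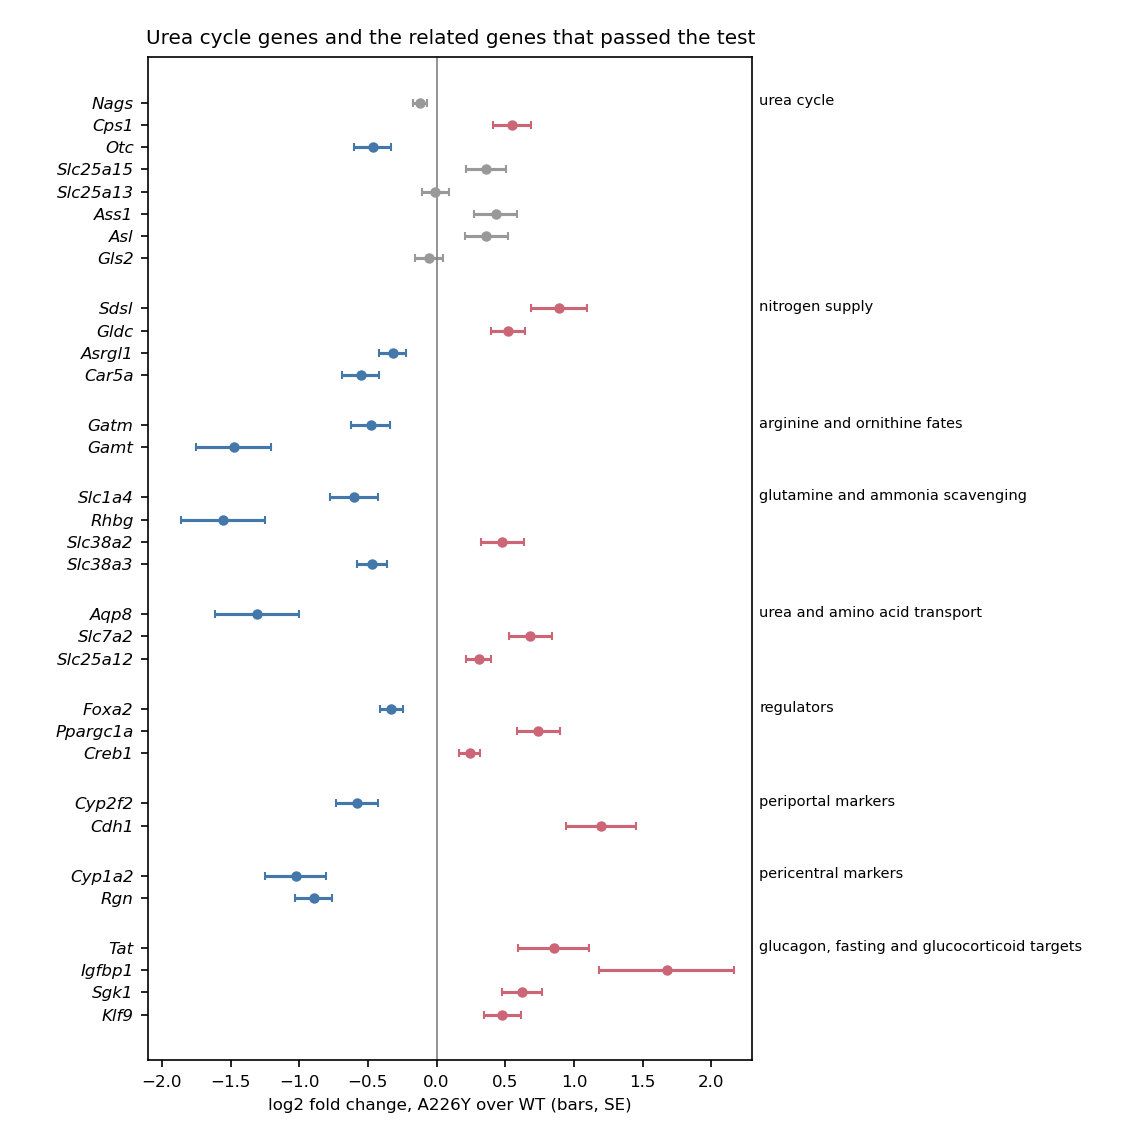
Log2 fold change of A226Y over WT with its SE for the 8 urea cycle genes and for the related genes that passed an adjusted p of 0.05 (red, higher; blue, lower; grey, not passed), each shown under the first list that holds it. Cps1 at 0.55 and Otc at -0.47 lie on opposite sides of 0, and Rhbg (-1.56) and Gamt (-1.48) lie farthest to the left.

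Of 17 regulators of the cycle genes, 2 were higher and 1 lower. Ppargc1a, a coactivator induced in fasting, rose (0.74, SE 0.16, adjusted p = 0.00539 by edgeR), as did Creb1, the factor that answers to glucagon through cAMP (0.24, SE 0.08, adjusted p = 0.0381, a call held in 5 of 10 other settings and in 6 of the 18 fits that left out a mouse). Foxa2 fell (-0.33, SE 0.09, adjusted p = 0.0148 by edgeR). The glucagon receptor Gcgr had -0.22 (adjusted p = 0.0676) and Cebpa -0.33 (adjusted p = 0.0697 by edgeR), both short of the threshold. Klf15 at 0.255 (adjusted p = 0.0619) and Crtc2 at 0.19 (adjusted p = 0.0641 by edgeR) fell short in the other direction.

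Targets of glucagon, fasting and glucocorticoids were read beside Cps1. Of 15, 5 were higher and none lower, beside 7.27% and 7.03% of all genes, and their median log2 fold change was 0.33. These were Tat, which degrades tyrosine (0.85, adjusted p = 0.0331), Igfbp1 (1.68, adjusted p = 0.0283), Ppargc1a, the kinase Sgk1 (0.62, adjusted p = 0.00935) and the glucocorticoid-induced factor Klf9 (0.48, adjusted p = 0.0238, all by edgeR). When a mouse was left out the call of Tat held in 12 of 18 fits and that of Igfbp1 in 15, and with 4 surrogate variables Tat had a log2 fold change of -0.0397 and neither passed. Igfbp1 reached 685 CPM in 1 A226Y mouse against a median of 93.8, and its log2 fold change was 1.05 without mouse 29. Pck1, the gluconeogenic carboxykinase, had 0.28 (adjusted p = 0.0953). The summed level of the 15 was between 8874 and 12700 CPM in WT and between 11430 and 17480 CPM in A226Y mice, and none was at 0. The part of this in the higher Cps1 was not tested.

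Zonation was read from 9 periportal and 11 pericentral markers, since the cycle is periportal. Of the periportal genes Cdh1 was higher (2.29-fold, adjusted p = 0.00559 by edgeR) and Cyp2f2 lower (-0.58, SE 0.15, adjusted p = 0.0173). Of the pericentral genes none was higher and 3 were lower, Rhbg, Cyp1a2 (-1.03, SE 0.22, adjusted p = 0.00601) and Rgn (-0.90, SE 0.14, adjusted p = 0.000932 by edgeR), while the median of the list was -0.07. The periportal sum was between 6292 and 8611 CPM in WT and between 7730 and 9440 CPM in A226Y mice, and the pericentral sum between 9162 and 14790 and between 5031 and 11530 CPM. Pck1, also one of the fasting targets, was the largest part of the periportal sum, with a mean of 3920 CPM in WT and 4770 CPM in A226Y mice, and without it, a choice made after the values were seen, the sum was between 3575 and 4054 CPM in WT and between 3212 and 4045 CPM in A226Y mice. Cyp2e1 was the largest part of the pericentral sum, with a mean of 8290 CPM in WT and 6900 CPM in A226Y mice. Its log2 fold change was -0.26 (adjusted p = 0.259 by edgeR). Glul, Oat, Slc1a2, Axin2, Lgr5, Tbx3 and Lhpp did not pass either. The lowest pericentral sum was in mouse 29, the mouse with the least Otc, and the next A226Y mouse had 8245 CPM. In whole liver, fewer cells of a type or zone and less RNA per cell cannot be told apart.

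Markers of other liver cells were read beside the cycle genes. Of 7 Kupffer cell and macrophage markers 1 was lower, Clec4f (-0.65, adjusted p = 0.0261 by edgeR), while 4 were lower at an unadjusted p under 0.05 (edgeR; 14.7% of all genes were). The list had a median log2 fold change of -0.44. Their sum was between 408 and 834 CPM (median 592) in WT and between 272 and 1064 CPM (median 369) in A226Y mice. The highest A226Y sum was in mouse 29, which also had the lowest Otc, Slc25a13 and Car5a, and without it the highest was 691 CPM. Of 7 stellate cell markers 3 were lower (Colec11, Col1a1 and Col3a1), while Dcn, the most abundant (0.18), and Rgs5 (0.23) were higher at an unadjusted p under 0.05 only (edgeR), with sums of 377 to 463 CPM in WT and 392 to 465 CPM in A226Y mice. None of 7 endothelial, 7 lymphocyte or 5 tested cholangiocyte markers passed in either direction. Of 8 hepatocyte markers 1 was higher, Apob (0.29, adjusted p = 0.0329 by edgeR). The part of these cell types in the results for the cycle genes was not tested.

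The directions of Cps1 and Otc held under all 28 other settings, and their calls under all but a few. Cps1 stayed under an adjusted p of 0.05 in 9 of 10 settings and in all 18 fits that left out a mouse, with log2 fold changes from 0.48 to 0.62 in the latter. Otc did so in 9 of 10 settings and in 17 of 18 such fits. With 4 surrogate variables, which also take up shared variation of unknown source, Cps1 had 0.11 (adjusted p = 0.700) and Otc -0.23 (adjusted p = 0.220 by edgeR), and only 50 of all genes passed.

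**Figure D5:**
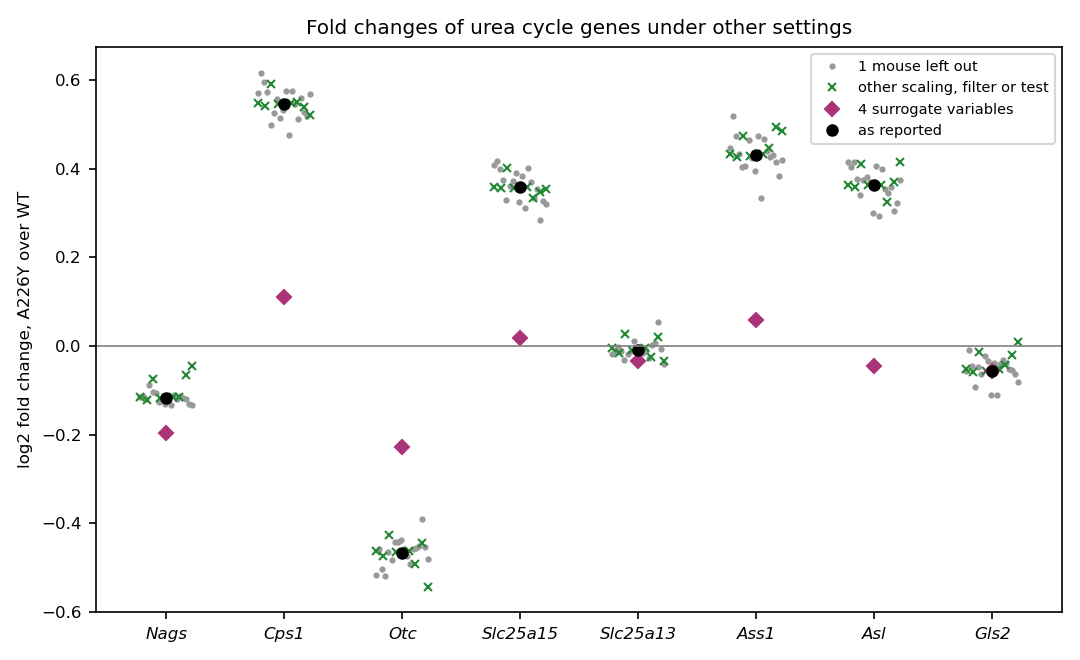
Log2 fold change of each urea cycle gene as reported (black), with 1 mouse left out (grey), with another scaling, filter, offset or test (green) and with 4 surrogate variables (purple). Cps1 stays above 0 and Otc below 0 throughout, and with 4 surrogate variables the values of Cps1, Slc25a15, Ass1 and Asl lie between -0.05 and 0.11.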

How the data were processed

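Counts of reads per Ensembl gene were deposited by the authors for each of 18 livers, as whole numbers and not normalized. The paper's methods describe quantification per gene with RSEM, whereas the submitters' processing notes name bcl2fastq, fastp, STAR, featureCounts and MultiQC with GRCm38, so the tool behind the counts is not settled by the sources. Symbols and positions came from GENCODE M21 (GRCm38), which held 22214 of the 22524 identifiers. Genes with at least 10 counts in 50% of the mice of 1 genotype were tested with edgeR 4.0.16 in R 4.3.3 (TMM scaling, quasi-likelihood test, no covariates, two-sided, Benjamini-Hochberg adjustment over 13353 genes). The SE is the log2 fold change divided by the square root of F. Mice were counted as separate samples, and no 2 of the same genotype had counts within sampling noise (chi-square per degree of freedom of at least 20.1).

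The members and all lists were chosen with earlier results of these data known, and 1 further member and 1 further related gene are not reported here. Named are all members, Rps2, up to 6 genes per related list with an adjusted p under 0.05, neighbours in role that did not pass, and the 5 genes most like the mean profile. Length and GC offsets (lowess span 0.3, pseudocount 0.5), other scalings, filters, DESeq2 1.42.0, limma-voom 3.58.1, 4 surrogate variables (sva 3.50.0) and leaving out each mouse were tried. The fits were tested on simulated counts. Promoter bases came from RefSeq on GRCm38.p6. Rps2-loxP mice were not analysed here.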

Additional observations from a re-analysis of the deposited data

Results flagged for a closer look

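In the 8 urea cycle genes and 24 related genes named, 64 groups of 8 or 10 mice were searched for a mouse whose gap to the nearest other mouse was large for the range of its group (Dixon's ratio on log2 CPM above 0.526 for 8 and 0.466 for 10 mice), and 11 such values were found. Chance gives about 1 in 20 groups. A226Y mouse 29 accounted for 5 of them: it was the lowest of its group for Otc (173 CPM), Slc25a13 (216 CPM), Car5a (33.4 CPM) and Slc38a3 (749 CPM), and the highest for Slc38a2 (363 CPM). WT mouse 21 was the lowest WT mouse for Ass1 (462 CPM) and Asl (619 CPM). WT mouse 6 was the lowest WT mouse for Otc (334 CPM) and Rgn (565 CPM). WT mouse 33 was the lowest WT mouse for Slc25a13 (305 CPM), and A226Y mouse 15 the highest A226Y mouse for Gls2 (581 CPM). Without mouse 29 the log2 fold change of Slc25a13 was 0.05 (adjusted p = 0.533 by edgeR) and that of Slc25a15 0.28 (adjusted p = 0.132).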

How the results depend on the processing

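The count of urea cycle genes lower in A226Y liver was 1 as reported and 0 with 4 surrogate variables, and ranged from 0 (without WT mouse 14) to 1 when a mouse was left out. The count of those higher was 1 as reported, 2 with DESeq2, with scaling by library size only and with a length offset (Ass1 being the added gene), 0 with 4 surrogate variables, and from 1 to 2 when a mouse was left out (2 without WT mouse 4 or A226Y mouse 5). Over all genes 1910 passed, 50.8% of them higher, against 2059 with 67.9% higher when only library size was used, 50 with 4 surrogate variables, and from 1255 (without WT mouse 14) to 2560 (without A226Y mouse 29). In WT mice alone 4 of 28 pairs passed by r and in A226Y mice alone 8 of 28, against 11 over all mice. Some signs turned: Slc25a13 was 0.0279 with library size only, 0.0204 with a length offset and from -0.0408 to 0.0550 when a mouse was left out, Gls2 was 0.0098 with a GC offset, and Asl was -0.0456 with 4 surrogate variables, and Tat, which passed as reported, was -0.0397 there. The cause was not tested. The fold changes of the other members, of Rps2 and of the other 23 related genes that passed kept their direction, and the other named genes were not compared across these settings. With 4 surrogate variables none of the 24 related genes passed, and when a mouse was left out the calls of Slc1a4, Gatm, Igfbp1, Slc25a12 and Tat held in 16, 15, 15, 14 and 12 of 18 fits. Depth limits none of the members, since the spread between mice exceeds the counting error. No paired analysis was possible because litter and cage of the sequenced mice are not given in the sources used here.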
